A study of Arabidopsis thaliana with 12 samples.

Results

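The transcripts described here are those that stood apart in leaves of the Arabidopsis thaliana mutant fls1-3 from leaves of all 3 other genotypes of the series. They are 109 of 22746 probe sets, 89 higher and 20 lower in fls1-3, and ATMRK1, the gene of a Raf-like protein kinase, led the lower ones that name a gene. The members were chosen by their measured values. A probe set, the group of probes on the array that measures 1 transcript, was taken if its overall mean reached 7 on the log2 scale and its fls1-3 mean differed from each of the OE1, OE2 and Col-0 means by at least 0.6 log2 units in the same direction. All 3 fls1-3 arrays also had to lie outside the range of the other 9 arrays. The overall mean counts the fls1-3 arrays, so some higher members reached 7 only through them. Plastid-encoded transcripts and control probe sets were left out, as were GTR1, COR47 and AT5G38710. The differences between fls1-3 and the other groups are therefore a description of the members and not a test.

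The series holds 12 one-channel Affymetrix arrays, 3 per genotype, of rosette leaves from 6-week-old plants grown in soil at 22 °C and 60% humidity with 16 h of light. The groups were the mutant fls1-3, a pair of TaFLS overexpression lines named OE1 and OE2, and the wild type Col-0. No treatment is named for any group. The promoter driving TaFLS, the number of plants behind an array and the kind of lesion in fls1-3 are not given in the sources used here. The labels state a raised flavonol content for fls1-3 and OE2 and a lowered one for OE1. These labels conflict, since they give opposite contents for both TaFLS overexpression lines and a raised content for a mutant named for the enzyme that makes flavonols, so each group is called by its array label. The level of FLS1, which would check the mutant label, was not analysed here, since 0 probe sets name it in the annotation used.

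As background, flavonol synthase turns dihydroflavonols into flavonols such as kaempferol and quercetin, which in leaves act as antioxidants, absorb ultraviolet light and modulate auxin transport. Raf-like kinases form a large plant family of protein kinases that includes regulators of ethylene, abscisic acid and stomatal signalling. Jasmonates are fatty-acid-derived hormones of wounding and defence, and leaf cells remove active jasmonic acid by oxidation. Calcium signals are read by EF-hand proteins such as calmodulins and calmodulin-like proteins.

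Some arrays stood apart from others of their own genotype. Over all transcripts with a mean of at least 7, fls1-3 replicates 1 and 3 correlated at r = 0.874 and Col-0 replicates 1 and 3 at r = 0.871, while every OE2 pair reached at least 0.975. Array medians lay between 7.10 and 7.55. The 3' end of the GAPDH control exceeded its 5' end by 0.86 to 1.64 log2 units on fls1-3 arrays, against 2.0998 to 2.44 on OE1, 1.15 to 1.65 on OE2 and 1.19 to 1.396 on Col-0 arrays. The array holds 2 sets of ubiquitin control probe sets. In the first the ranges were 1.303 to 1.45 on fls1-3, 1.86 to 2.44 on OE1, 1.88 to 1.90 on OE2 and 1.35 to 1.84 on Col-0 arrays. In the second they were 0.204 to 0.29 on fls1-3, 1.07 to 1.404 on OE1, 0.57 to 0.79 on OE2 and 0.44 to 0.72 on Col-0 arrays, so that the fls1-3 arrays lay below all the other 9. The part of these array differences in the members was not tested. Of the photosynthesis genes that mark leaf tissue, RCA and LHCB4.1 are named, and their group means were all at least 14.44. Of the marker lists for other cell types, 2 of 6 guard cell genes and 1 of 3 root genes were named, and none of the epidermis, phloem, xylem, seed or flower genes. Summed guard cell markers ranged from 8.30 to 9.13 in fls1-3, against 7.11 to 8.60 in OE1, 8.44 to 9.24 in OE2 and 8.32 to 8.85 in Col-0. PYK10, the root marker, scattered within the groups and ranged from 0.35 to 11.36 in fls1-3, against 5.35 to 11.11 in OE1, 9.86 to 11.11 in OE2 and 5.79 to 10.78 in Col-0. In leaf RNA, fewer cells of one type and less RNA per cell cannot be told apart.

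Of the 89 higher members, 39 name 1 gene and 50 are unnamed in the annotation used. Of the 20 lower members, 8 name 1 gene, 1 names several and 11 are unnamed. Higher members were 0.734% of the 12132 non-plastid transcripts with a mean of at least 7, and lower members 0.165%. The distance from the fls1-3 mean to the nearest other group mean had a median of 0.89 log2 units among higher members, with a maximum of 2.72, and it reached at least 1 in 35 of them. Among lower members the median distance was 0.69, the maximum 2.60, and 3 reached at least 1. Just inside the threshold stood IRX15-L at 0.602 and AT3G15570 at 0.603, and just outside it stood 263786_at, an unnamed probe set on the higher side, at 0.595 and AT2G27060 on the lower side at 0.590. A further 133 higher and 95 lower transcripts had separated arrays with smaller distances.

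**Figure D1:**
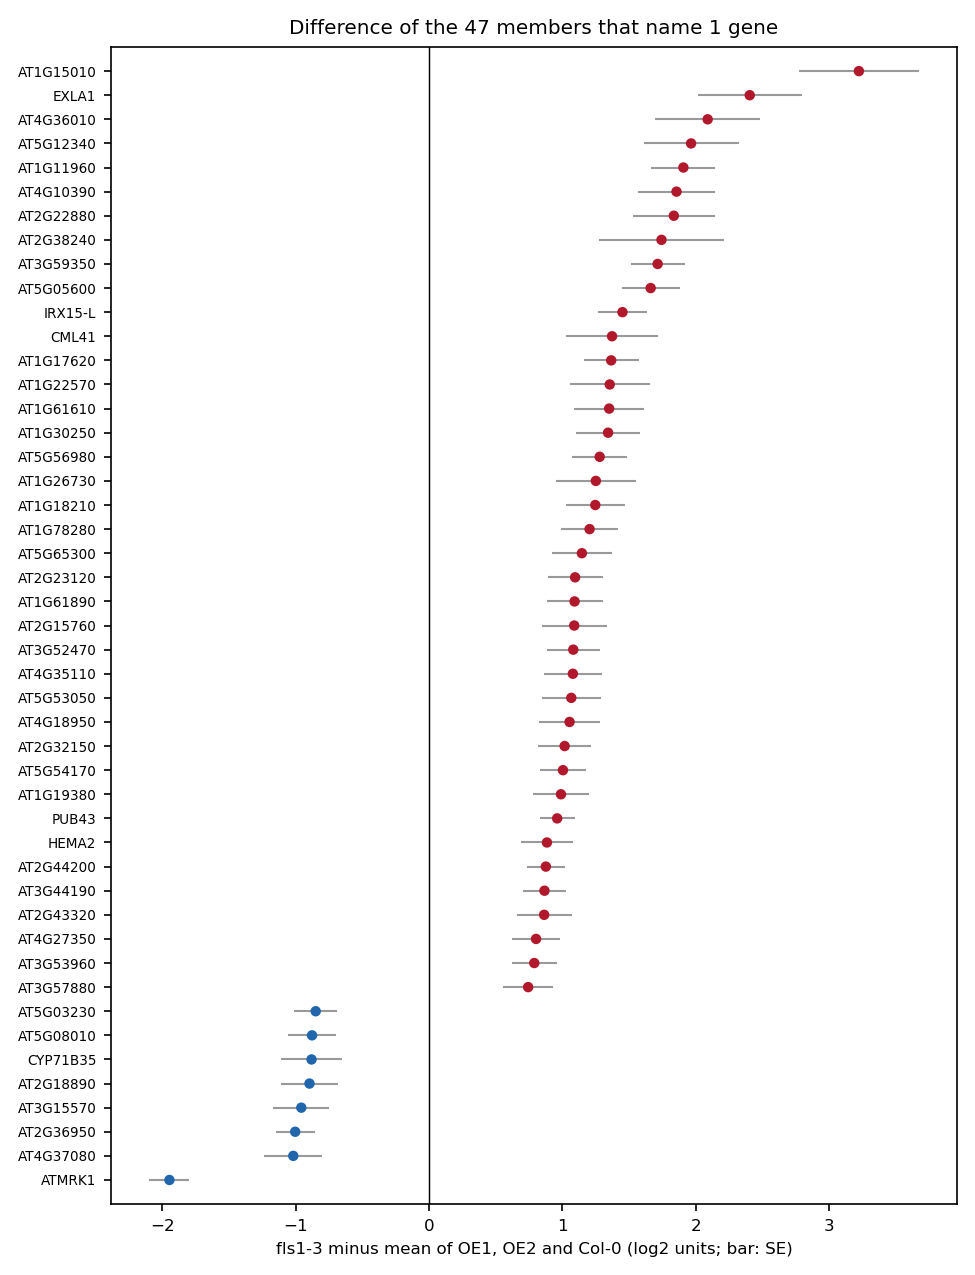
Difference of the fls1-3 mean from the mean of OE1, OE2 and Col-0, in log2 units, for the 47 members that name 1 gene, with the standard error of the limma fit as bars. The 39 higher genes, in red, reach 3.22 at AT1G15010, and ATMRK1 is the lowest of the 8 lower genes, in blue, at -1.95.

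The role groups used below were picked after the values were seen. Of the 47 named members 39 were higher, so a small group wholly on the higher side shows nothing about its role. The protein kinase genes among the members ran in both directions, 4 higher and 2 lower. ATMRK1 had log2 signals of 7.61, 6.95 and 7.37 in fls1-3, against 9.18, 9.38 and 9.47 in OE1, 9.05, 9.06 and 9.18 in OE2 and 9.54, 9.24 and 9.21 in Col-0. The highest fls1-3 array lay 1.44 log2 units under the lowest of the other 9, and the 3 other genotypes were close to each other. Its group means were 7.31 ± 0.34 in fls1-3, against 9.34 ± 0.15 in OE1, 9.098 ± 0.07 in OE2 and 9.33 ± 0.18 in Col-0 (SD, n = 3 each). The distance to the nearest group, OE2, was 1.79 log2 units or 3.45-fold, and the difference from the mean of the other groups was -1.95 ± 0.15 (SE). AT2G18890, also of a protein kinase, had log2 signals of 6.77, 6.57 and 6.501 in fls1-3, against 7.94, 7.76 and 7.71 in OE1, 6.95, 7.61 and 7.69 in OE2 and 6.92, 7.55 and 7.44 in Col-0. Its distance was smaller, 0.69 log2 units from Col-0, and the highest fls1-3 array lay 0.15 below the lowest other array, Col-0 replicate 1.

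AT4G18950, which encodes another Raf-like kinase, stood on the opposite side to ATMRK1. Its log2 signals were 9.36, 9.63 and 10.26 in fls1-3, against 8.27, 8.75 and 8.82 in OE1, 9.25, 9.01 and 8.798 in OE2 and 8.96, 7.97 and 8.42 in Col-0. The fls1-3 arrays were the highest, although OE2 replicate 1 came within 0.11 log2 units of fls1-3 replicate 1. AT3G59350, a kinase gene of the family named for the tomato kinase Pti1, had 9.26, 9.39 and 9.201 in fls1-3, against 6.88, 7.14 and 7.83 in OE1, 8.52, 8.36 and 7.92 in OE2 and 7.12, 7.26 and 7.08 in Col-0. The 3 fls1-3 values lay within 0.2 of each other, and OE2 lay between fls1-3 and the pair of OE1 and Col-0. AT4G10390, also of a protein kinase, had 10.42, 9.72 and 9.05 in fls1-3, against 8.39, 8.34 and 8.09 in OE1, 8.55, 7.59 and 7.45 in OE2 and 7.06, 7.802 and 7.57 in Col-0. AT1G61610, of an S-locus lectin receptor kinase, had 9.65, 9.07 and 8.704 in fls1-3, against 7.904, 7.86 and 7.596 in OE1, 8.56, 7.65 and 7.95 in OE2 and 8.15, 7.18 and 7.28 in Col-0. In both genes fls1-3 replicate 1 was the highest array and replicate 3 the lowest of the mutant. Differences from the mean of the other groups were 1.05 ± 0.23, 1.72 ± 0.201, 1.86 ± 0.29 and 1.35 ± 0.26 log2 units (SE) for AT4G18950, AT3G59350, AT4G10390 and AT1G61610.

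**Figure D2:**
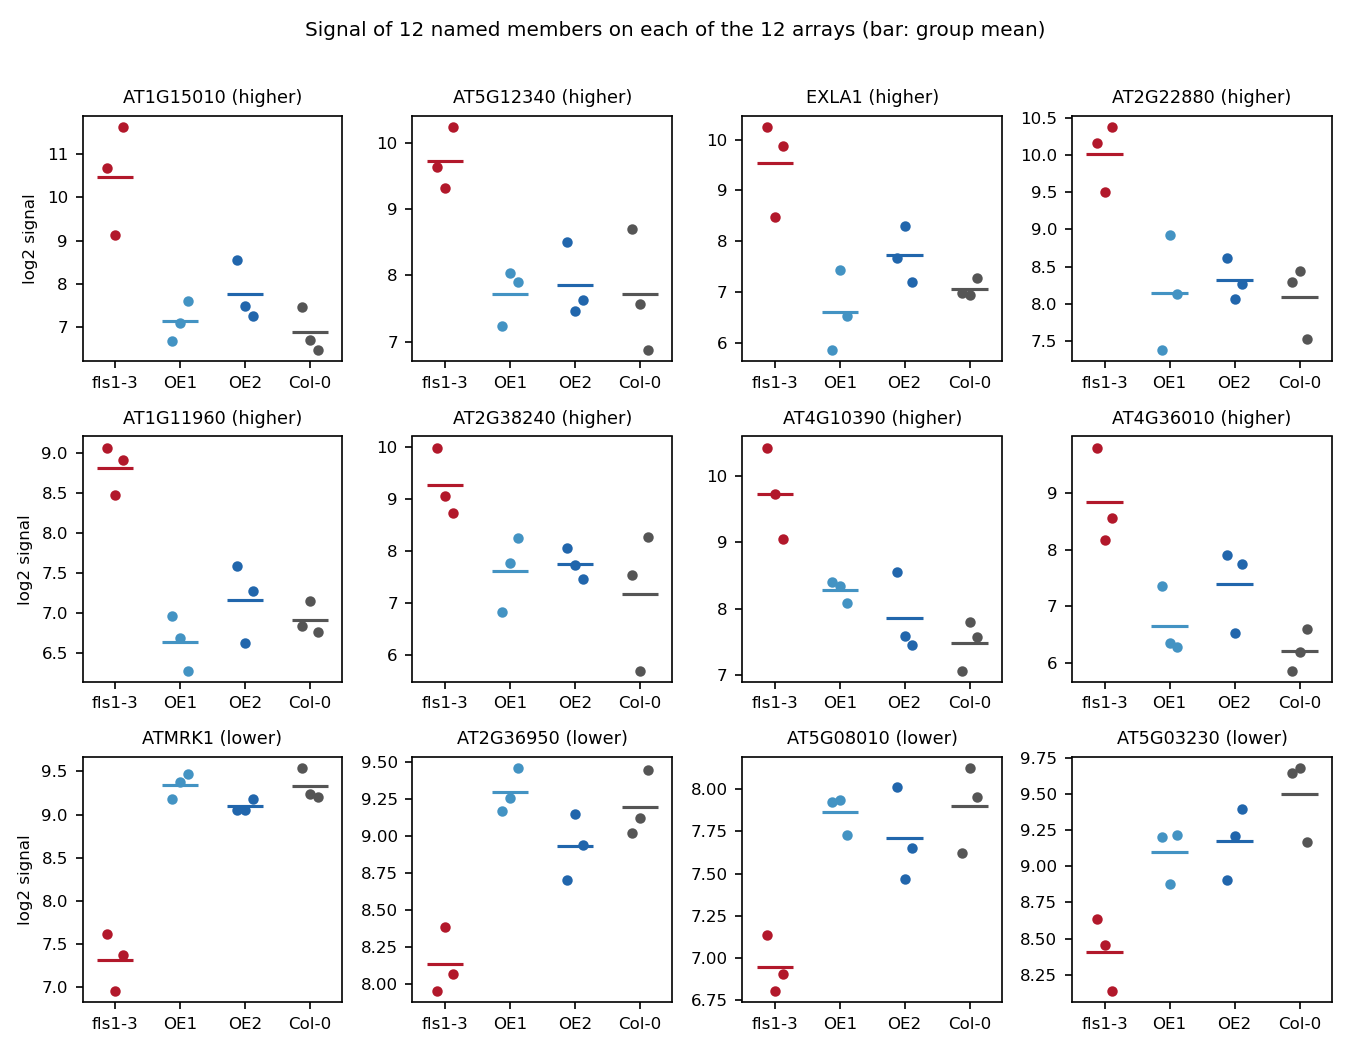
Log2 signal of 12 named members on every array, grouped as fls1-3, OE1, OE2 and Col-0, with a bar at each group mean of 3 arrays. The top 2 rows hold the 8 higher genes and the bottom row the 4 lower genes with the largest distance to the nearest group, and the vertical axes differ between panels and do not start at 0.

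Both jasmonate turnover genes among the members were higher in fls1-3. They encode dioxygenases that hydroxylate jasmonic acid and so remove it. AT5G05600 had 12.01, 12.22 and 12.06 in fls1-3, against 10.199, 10.79 and 10.65 in OE1, 11.51, 11.18 and 10.79 in OE2 and 10.23, 9.17 and 9.38 in Col-0. All fls1-3 arrays lay above OE2, the nearest group, and the group means were 12.096 ± 0.11 in fls1-3, against 10.55 ± 0.31 in OE1, 11.16 ± 0.36 in OE2 and 9.59 ± 0.56 in Col-0 (SD, n = 3 each). AT2G38240 had 9.98, 9.05 and 8.73 in fls1-3, against 6.83, 7.76 and 8.25 in OE1, 8.05, 7.74 and 7.47 in OE2 and 7.53, 5.697 and 8.27 in Col-0. Col-0 scattered most in this gene, with replicate 2 more than 2 log2 units below replicate 3, and the difference from the other groups, 1.74 ± 0.47 (SE), had a larger error than the 1.66 ± 0.22 of AT5G05600.

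In the cell wall group, EXLA1 and IRX15-L were higher. EXLA1 encodes an expansin-like protein, a relative of the proteins that loosen cell walls. It had 10.25, 8.48 and 9.89 in fls1-3, against 5.85, 7.43 and 6.52 in OE1, 7.67, 8.30 and 7.21 in OE2 and 6.98, 6.93 and 7.29 in Col-0. OE2 replicate 2 came within 0.18 log2 units of the lowest fls1-3 array, while OE1 lay below Col-0 on average. IRX15-L, whose product is needed for normal xylan, had 8.902, 8.72 and 8.88 in fls1-3, against 7.402, 7.22 and 7.51 in OE1, 8.597, 8.25 and 7.85 in OE2 and 6.29, 6.78 and 6.55 in Col-0. Here the groups formed 4 levels, with Col-0 lowest and OE2 nearest to fls1-3, at the distance given above as just inside the threshold.

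The 3 calcium genes were higher. AT1G11960 encodes a channel of the OSCA family of calcium-permeable osmosensors. It had 9.06, 8.47 and 8.91 in fls1-3, against 6.95, 6.69 and 6.28 in OE1, 7.58, 6.63 and 7.28 in OE2 and 6.83, 7.15 and 6.77 in Col-0. Its lowest fls1-3 array exceeded every other array by 0.89 log2 units, the widest separation among the 39 named higher members. Its group means were 8.81 in fls1-3, 6.64 in OE1, 7.16 in OE2 and 6.92 in Col-0. The minimum overall mean of 7 was thus reached through the fls1-3 arrays. CML41, a calmodulin-like protein, had 9.08, 8.93 and 10.26 in fls1-3, against 7.295, 7.94 and 7.82 in OE1, 8.79, 7.56 and 8.86 in OE2 and 8.69, 7.68 and 7.83 in Col-0. Arrays of OE2 and Col-0 reached almost to the mutant's range, and the separation was 0.07. AT1G18210, of an EF-hand calcium-binding protein, had 11.99, 11.37 and 12.26 in fls1-3, against 10.61, 9.995 and 10.41 in OE1, 11.31, 10.76 and 10.89 in OE2 and 11.03, 10.25 and 10.35 in Col-0, with a separation of 0.06 from OE2 replicate 1.

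The stress and defence families had 5 members, all higher, as were 39 of the 47 named members. AT4G36010, of the thaumatin-like pathogenesis-related family, had 9.801, 8.17 and 8.57 in fls1-3, against 7.36, 6.34 and 6.28 in OE1, 7.90, 6.53 and 7.75 in OE2 and 5.86, 6.19 and 6.59 in Col-0. Its mutant arrays were spread over more than 1.6 log2 units and still lay above the other 9. The overall mean, 7.28, reached the minimum of 7 only through the fls1-3 arrays. AT2G22880, whose product carries a VQ motif found in partners of WRKY transcription factors, had 10.17, 9.50 and 10.38 in fls1-3, against 7.37, 8.92 and 8.13 in OE1, 8.62, 8.06 and 8.27 in OE2 and 8.29, 8.44 and 7.52 in Col-0. OE1, OE2 and Col-0 had nearly the same mean, and the difference was 1.84 ± 0.31 (SE). AT2G23120, of a late embryogenesis abundant protein, had group means of 12.94 in fls1-3, against 11.86 in OE1, 12.096 in OE2 and 11.57 in Col-0. AT1G17620 and AT3G52470, both of a hydroxyproline-rich glycoprotein family related to NDR1 and HIN1, differed by 1.37 ± 0.21 and 1.08 ± 0.197 (SE).

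The 4 membrane transport genes were all higher. AT1G61890, of a MATE efflux carrier, had 11.84, 11.68 and 11.61 in fls1-3, against 10.27, 11.204 and 10.85 in OE1, 10.44, 10.14 and 10.16 in OE2 and 11.09, 11.12 and 10.26 in Col-0. All mutant arrays lay in a narrow band above the rest, and OE2 was the lowest group. AT1G22570 and AT3G53960, of the nitrate and peptide transporter family, differed from the other groups by 1.36 ± 0.30 and 0.79 ± 0.17. AT1G26730, of a protein with the EXS domain of the phosphate exporter PHO1, differed by 1.25 ± 0.302, with fls1-3 replicate 1 more than 1 log2 unit above the other mutant arrays. Its overall mean of 7.19 reached the minimum of 7 only through the fls1-3 arrays.

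Among enzymes, 6 genes were higher and 1 lower. PUB43, a U-box ubiquitin ligase, had 9.62, 9.45 and 9.65 in fls1-3, against 8.47, 8.76 and 8.69 in OE1, 8.89, 8.81 and 8.51 in OE2 and 8.496, 8.26 and 8.598 in Col-0. The mutant arrays spanned only 0.2 log2 units and the difference was 0.96 ± 0.13 (SE). HEMA2, for the glutamyl-tRNA reductase isoform that feeds haem synthesis, had 8.76, 8.72 and 9.22 in fls1-3, against 7.91, 8.39 and 8.55 in OE1, 8.46, 8.07 and 8.07 in OE2 and 7.86, 7.601 and 7.23 in Col-0. Col-0 was the lowest group and OE1 the nearest to fls1-3. AT2G32150, of a haloacid dehalogenase-like hydrolase, AT5G53050, of an alpha/beta hydrolase, AT3G44190, of an FAD-dependent oxidoreductase, and AT2G43320, of a methyltransferase, differed by 1.02, 1.07, 0.87 and 0.86. CYP71B35, a cytochrome P450, was the lower one, with 7.07, 6.66 and 6.86 in fls1-3, against 7.73, 8.18 and 7.398 in OE1, 7.74, 7.77 and 7.11 in OE2 and 7.95, 8.21 and 7.59 in Col-0. OE2 replicate 3 came within 0.04 of the mutant range.

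The largest difference of any named member belonged to AT1G15010, a gene without an assigned role here. It had 10.69, 9.14 and 11.62 in fls1-3, against 6.68, 7.11 and 7.62 in OE1, 8.56, 7.48 and 7.25 in OE2 and 7.46, 6.71 and 6.47 in Col-0. The distance to OE2, the nearest group, was 2.72 log2 units or 6.59-fold, while the mutant arrays themselves ranged over 2.5 units. AT5G12340 had 9.63, 9.32 and 10.24 in fls1-3, against 7.24, 8.03 and 7.91 in OE1, 8.498, 7.46 and 7.62 in OE2 and 8.696, 7.57 and 6.87 in Col-0. In this gene the OE1, OE2 and Col-0 means lay within 0.2 of each other. AT5G56980 had 11.699, 10.91 and 10.87 in fls1-3, against 9.77, 10.15 and 9.76 in OE1, 10.17, 9.52 and 9.58 in OE2 and 10.005, 10.27 and 9.67 in Col-0, with fls1-3 replicate 1 highest and no overlap.

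The other 10 named higher genes differed from the mean of the other groups by 0.74 to 1.34 log2 units. AT5G54170, of a lipid-binding protein with a START domain, AT3G57880, of a C2-domain protein, and AT2G44200 differed by 1.01, 0.74 and 0.88. AT1G30250, AT1G78280, AT5G65300, AT2G15760 and AT4G35110 differed by 1.34, 1.205, 1.15, 1.09 and 1.08. AT1G19380 and AT4G27350 differed by 0.99 and 0.803. Of these, AT3G57880 came closest to overlapping, with OE1 replicate 1 only 0.04 log2 units under the lowest mutant array.

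The other lower genes differed by between -0.85 and -1.02 log2 units. AT2G36950, of a protein with a heavy-metal-associated domain, had 7.95, 8.39 and 8.07 in fls1-3, against 9.17, 9.25 and 9.46 in OE1, 8.704, 9.15 and 8.94 in OE2 and 9.02, 9.12 and 9.44 in Col-0. The mutant was lowest on every array and OE2 was the nearest group. AT5G08010 had 7.13, 6.804 and 6.91 in fls1-3, against 7.92, 7.93 and 7.73 in OE1, 8.01, 7.47 and 7.65 in OE2 and 7.62, 8.12 and 7.95 in Col-0, with OE1 and Col-0 at almost the same mean. AT5G03230, of a protein family related to senescence regulators, had 8.63, 8.45 and 8.14 in fls1-3, against 9.204, 8.88 and 9.21 in OE1, 8.91, 9.21 and 9.397 in OE2 and 9.65, 9.68 and 9.17 in Col-0. Col-0 was the highest group in this gene. AT3G15570, of the NPH3 family that includes the phototropism protein NPH3, had 7.77, 8.34 and 8.18 in fls1-3, against 9.01, 9.41 and 9.31 in OE1, 8.35, 8.88 and 8.87 in OE2 and 8.65, 9.53 and 9.48 in Col-0. One array, OE2 replicate 1, lay 0.01 above the highest mutant array. AT4G37080 had 7.68, 7.63 and 7.65 in fls1-3, against 8.81, 8.81 and 8.88 in OE1, 7.84, 8.38 and 8.57 in OE2 and 8.25, 9.17 and 9.31 in Col-0, and here the 3 mutant arrays differed by at most 0.05.

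Unnamed probe sets had some of the largest distances to the nearest group. The lower probe set 261728_at had 7.39, 7.37 and 8.37 in fls1-3, against 10.93, 11.32 and 11.14 in OE1, 11.62, 11.71 and 11.44 in OE2 and 9.48, 10.51 and 10.94 in Col-0. Its distance to the nearest group, Col-0, was 2.602 log2 units or 6.07-fold, larger than that of ATMRK1. On the higher side, 250560_at had 9.503, 9.84 and 10.21 in fls1-3, against 8.34, 6.94 and 7.14 in OE1, 7.001, 7.55 and 7.65 in OE2 and 6.32, 7.105 and 7.77 in Col-0, and 252368_at had 10.42, 8.61 and 9.13 in fls1-3, against 4.16, 6.595 and 5.99 in OE1, 8.07, 6.47 and 6.67 in OE2 and 5.37, 5.66 and 7.72 in Col-0. The first separated by 1.16 log2 units, the second by 0.54 with OE1 replicate 1 as low as 4.16. The overall mean of 252368_at, 7.07, reached the minimum only through the fls1-3 arrays. Its other group means were 5.58 in OE1, 7.07 in OE2 and 6.25 in Col-0.

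Some members had consecutive probe set numbers. Of 7059 pairs of named probe sets with consecutive numbers, 75.4% name genes at most 10 genes apart in the order of TAIR10.1 protein-coding genes, a share that covers only pairs with both genes named. Among the members there were 4 pairs with consecutive numbers, of 7413 among all transcripts with a mean of at least 7, and 2 of them ran in the same direction. Each holds at least 1 unnamed probe set, so whether their genes are neighbours was not tested. The probe set 251169_at, next to ATMRK1, was lower as well, with 6.54, 6.76 and 6.47 in fls1-3, against 8.24, 7.62 and 8.01 in OE1, 7.73, 7.88 and 8.39 in OE2 and 8.52, 8.35 and 8.39 in Col-0. AT2G22880 was next in number to an unnamed probe set that was higher by 1.99 log2 units. The lower gene AT5G08010 stood next to the higher 250560_at, and an unnamed pair also ran in opposite directions, at 1.59 and -0.87.

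The named members were on all 5 chromosomes, 13 on chromosome 1, 9 on chromosome 2, 10 on chromosome 3, 6 on chromosome 4 and 9 on chromosome 5. Chromosomes 1 to 5 thus held 27.7%, 19.1%, 21.3%, 12.8% and 19.1% of the named members, against 26.3%, 14.1%, 20.8%, 14.6% and 24.0% of all named transcripts with a mean of at least 7. As only 43.1% of members name 1 gene, a check of position over the whole set is void, and no test was made. On chromosome 5, which carries FLS1, the nearest named member was AT5G08010, 71 protein-coding genes away, and 44 named transcripts with a mean of at least 7 lay within that distance. The next were AT5G05600 and AT5G12340, 331 and 347 genes away. Probe sets that can cross-hybridise made up 2 of the 109 members, or 1.83%, against 3.53% of all transcripts with a mean of at least 7. No named member had a second probe set for the same gene. Of a 20-gene flavonoid list 6 are named, of which UGT78D3 and BAN had means below 7 and could not be members. UGT78D1, UGT78D2, AT1G06000 and DFR reached that mean and were not members, nor were GI, the 1 named clock gene of 10, and STZ, the 1 named touch and wound gene of 6. With 0.734% and 0.165% of all such transcripts chosen, so few named genes show nothing about these lists.

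The levels in the other genotypes, which the rule compared only with fls1-3, were not uniform. OE2 was the group nearest to fls1-3 for 67 of the 89 higher members, OE1 for 14 and Col-0 for 8. Over all non-plastid transcripts with a mean of at least 7, OE2 was the highest of these 3 groups in 33.1%. Among the 20 lower members OE2 was the lowest of the 3 in 14, against 28.7% over all these transcripts. These counts are read from the means and arrays that chose the members, while the shares over all transcripts involve no such choice. They are a description and not a test. The median within-group SD over all these transcripts was 0.158 in OE2, 0.226 in OE1 and 0.294 in Col-0, and its part in the counts was not tested. A single array, OE2 replicate 1, was the closest of the 9 to the mutant for 46 of the higher and 8 of the lower members. Without that array the rule chose 123 higher and 29 lower transcripts.

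Among OE1, OE2 and Col-0 the limma test, adjusted over all 22746 probe sets by Benjamini-Hochberg at 0.05, called 7 of the 89 higher members higher in OE2 than in Col-0, or 7.87%, against 0.514% of all probe sets called higher. None of the members was called lower in OE2, against 0.475% of all. These shares, and those of all probe sets given below, include dim probe sets that could not be members. Fitted on transcripts with a mean of at least 7 alone, 12132 of them not plastid-encoded, limma called 270 in OE2 against Col-0 in either direction. Among these were 9 of the 89 higher and 0 of the 20 lower members. The 7.87% and the 0.514% are thus from unlike sets, and the difference between them was not tested. The named ones were AT5G05600, at 1.57 ± 0.27 log2 units (SE, limma adjusted p = 0.0158), and IRX15-L, at 1.69 ± 0.23 (limma adjusted p = 0.00470). The other 5 are unnamed, with the largest at 3.12. The median OE2 difference from Col-0 was 0.41 over the 89 higher members and -0.23 over the 20 lower ones, against 0.06 over all transcripts with a mean of at least 7. These values share the Col-0 arrays with the comparison of fls1-3 with Col-0. With each array centred on its median the count was 4 in place of 7, without the intensity trend it was 3, and without OE2 replicate 2 it was also 4. Calls over all probe sets, in either direction, were then 120, 93 and 66 in place of 225.

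For OE1 the median difference from Col-0 was 0.05 over higher members and -0.05 over lower ones, against 0.07 over all these transcripts. Limma called no member in OE1 against Col-0 and 0% of all probe sets, and 17 higher and 2 lower members had an unadjusted p under 0.05, against 10.7% of all probe sets. In OE1 against OE2, a comparison without Col-0 arrays, the medians were -0.34 over higher members and 0.16 over lower ones, against 0.03 over all. Limma called no member there, against 0.0264% of all probe sets. Without OE2 replicate 1 it called 1 member, and with array quality weights 11. Over all probe sets these calls were 5 and 532, in place of 6. In that comparison 26 higher and 1 lower members had an unadjusted p under 0.05, against 8.43% of all.

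**Figure D3:**
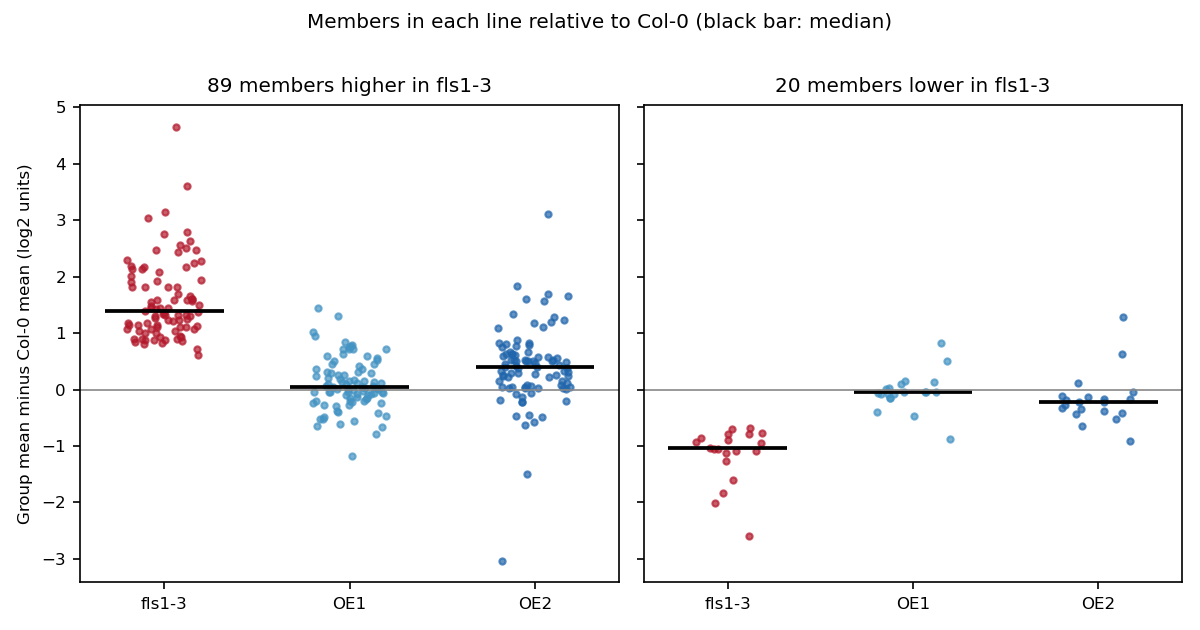
Difference of the fls1-3, OE1 and OE2 means from the Col-0 mean, in log2 units, for the 89 higher and the 20 lower members, with a point for each member and a black bar at the median. OE1 centres near 0 in both panels, with medians of 0.05 and -0.05, while OE2 has medians of 0.41 and -0.23.

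The comparisons that chose the members are given for completeness. Against the mean of the other 3 groups, limma called 51 of the 89 higher and 8 of the 20 lower members, beside 0.457% and 0.0923% of all probe sets called in those directions. Against Col-0 it called 51 and 9, beside 0.809% and 0.387% of all, and against OE1 34 and 5, beside 0.448% and 0.106%. Against OE2 it called 1 and 2, beside 0.0132% and 0.00879%. ATMRK1 was the named gene among these 3, at -1.79 ± 0.18 log2 units (SE), beside the unnamed 261728_at and 266246_at. The count of 59 members called against the mean of the other groups depended on single arrays. It was 15 without fls1-3 replicate 1, 27 without fls1-3 replicate 2, 26 without fls1-3 replicate 3, 36 without OE1 replicate 3, 28 without OE2 replicate 2, 27 without OE2 replicate 3 and 93 without Col-0 replicate 1. Calls over all probe sets changed as well, from 125 to 34, 54, 55, 61, 48, 45 and 474 in the same order.

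The rule was also applied to each other genotype, except that GTR1, COR47 and AT5G38710 were left out for fls1-3 only. It found 16 transcripts higher and 41 lower in OE1 alone, 35 and 32 in OE2 alone, and 59 and 60 in Col-0 alone. In fls1-3, 81.7% of the 109 were on the higher side. The differences between these counts were not tested. The median transcript with a mean of at least 7 was lower in fls1-3 than in the other groups, with differences of -0.096 from OE1, -0.07 from OE2 and -0.02 from Col-0. After centring each array on its median there were 102 higher and 11 lower members, and after quantile normalization 88 and 15.

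**Figure D4:**
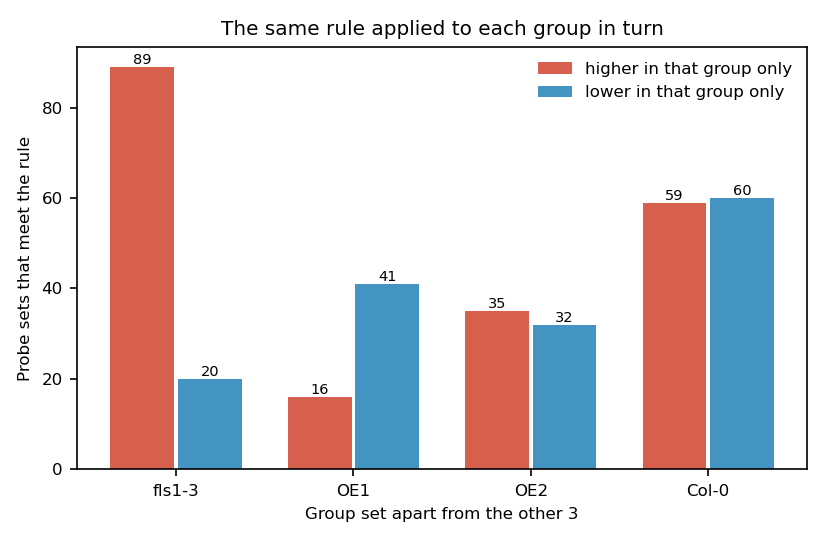
Number of probe sets that met the rule for fls1-3, OE1, OE2 and Col-0 in turn, with those higher and those lower in that genotype alone as separate bars. fls1-3 has 89 higher and 20 lower, and Col-0 has 59 and 60. GTR1, COR47 and AT5G38710 were left out for fls1-3 only.

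The same measure was then read in arrays that had taken no part in the choice. Members were chosen again by the same rule from the 8 arrays of a pair of replicate numbers and read in the 4 arrays with the third number. With replicate 2 held out, 161 transcripts were chosen as higher, and in 132 of them, or 82.0%, the held-out fls1-3 array lay above the 3 other held-out arrays, against 20.4% of all transcripts with a mean of at least 7. Of 40 chosen as lower, 28, or 70.0%, lay below, against 26.9% of all. With replicate 3 held out, 84 of 101 higher ones lay above, or 83.2%, against 29.8% of all. Of 22 lower ones 14 lay below, or 63.6%, against 44.9% of all. Final members made up 84 of the 161 higher and 15 of the 40 lower choices with replicate 2 held out. With replicate 3 held out they made up 66 of 101 and 10 of 22.

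With replicate 1 held out the choice behaved differently. The other 8 arrays chose 436 transcripts as higher and 434 as lower. In the held-out arrays 128 of the higher ones lay above, or 29.4%, against 17.2% of all, and 36 of the lower ones lay below, or 8.29%, against 18.8% of all. The transcripts chosen as lower had a median difference of -0.94 in the 8 arrays and 0.29 in the held-out ones, so their direction turned. Those chosen as higher had medians of 1.102 and 0.17. These held-out arrays include fls1-3 replicate 1 and Col-0 replicate 1, but the least similar pairs given above also hold replicate 3 of both genotypes. Array medians were 7.51, 7.27 and 7.12 on fls1-3 replicates 1, 2 and 3. On Col-0 replicates 1, 2 and 3 they were 7.10, 7.25 and 7.43. The part of these array differences in the result was not tested. The final 109 members were chosen on all 12 arrays, and they include 80 of the 436 transcripts and 18 of the 434.

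**Figure D5:**
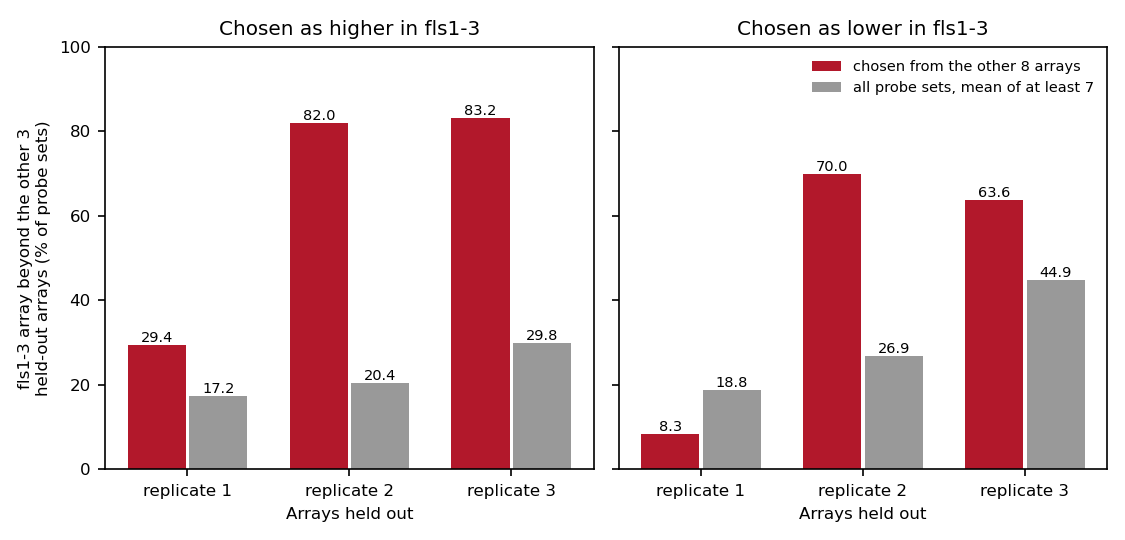
Share of transcripts, in percent, for which the held-out fls1-3 array lay beyond the 3 other held-out arrays on the chosen side, for those chosen from the other 8 arrays (red) and for all transcripts with a mean of at least 7 (grey). The chosen transcripts lie above the grey bars except for those chosen as lower with replicate 1 held out, at 8.29% against 18.8%.

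The members also varied with the mutant array. The median difference of the 89 higher members from the mean of the other groups was 1.45 on fls1-3 replicate 1, 1.14 on replicate 2 and 1.36 on replicate 3. For the 20 lower members these medians were -0.87, -0.80 and -1.05. Within-group SDs of the higher members had a median of 0.40 in fls1-3, against 0.31 in OE1, 0.29 in OE2 and 0.38 in Col-0. Leaving out an array cannot undo the separation of a member's arrays, so membership then turned only on the thresholds of 0.6 and 7. With 1 array left out at a time, 57 of the higher and 6 of the lower members met these in all 12 cases, which describes their distance from the thresholds. Leaving out fls1-3 replicate 2 gave 148 higher and 45 lower transcripts. Leaving out fls1-3 replicate 1 gave 146 higher and 92 lower transcripts, of which 75 and 16 were members. Without Col-0 replicate 1 there were 168 and 44, with all 109 members among them.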

How the data were processed

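RNA from 12 leaf samples was hybridised to 1-channel Affymetrix arrays, and the titles call the 3 arrays of a group biological replicates. The labels do not say how many plants stand behind an array, and each p-value therefore reflects only array-to-array spread within groups, which may be technical. MAS5 is named in the submitters' processing notes. The deposited log2 values were scaled by the authors before deposit, as the values show: the 2% trimmed mean of the linear values lay between 499.77 and 499.79 on every array. MAS5 signals of dim probe sets scatter, which the minimum mean of 7 limits only in part, since that mean includes the fls1-3 arrays. Gene names came from the platform annotation, and 13513 of 22746 probe sets name 1 gene. Gene order came from TAIR10.1.

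Members were found by the rule in the report. The tests used limma (version 3.58.1, under R 4.3.3) on the 22746 probe sets of all 12 arrays. The fit had an intensity trend, 8 residual degrees of freedom and Benjamini-Hochberg adjustment at 0.05. It was run on simulated data with independent noise on each array and changes only in probe sets with a mean of at least 8. Those data held no array-wide differences and no changed dim probe sets, so that run says nothing about either. The contrasts of fls1-3 chose the members and are descriptions. All members naming 1 gene are named. Values on every array are given for the 12 higher members with the largest distance to the nearest group among those naming 1 gene, the 8 named lower members, 2 unnamed higher and 2 unnamed lower probe sets, and for some others. Those others and the role groups were picked after the values were seen. Members and lists were chosen with earlier results of these data known. Samples were treated as unpaired. The 18 same-numbered pairs had a median correlation of deviations of 0.040, from -0.71 to 0.74. Pairs with unlike numbers had a median of 0.036, from -0.67 to 0.67. Whether some arrays shared a batch was not tested. The alternatives tried were other scalings, pseudocounts, thresholds, weights, a block and left-out arrays.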

Additional observations from a re-analysis of the deposited data

How the results depend on the processing

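The main counts were 89 higher and 20 lower members. The lower count was 11 with arrays centred on their medians, 6 with a pseudocount of 64 and 12 with an overall mean of at least 8. With a required difference of 0.4 there were 153 higher and 50 lower members, and with 0.8 there were 4 lower ones. Leaving out 1 array at a time gave 83 to 168 higher and 18 to 92 lower members. Members called by limma in fls1-3 against the mean of the other groups numbered 59, of 125 probe sets called. They were 12 of 25 without the intensity trend and 107 of 2260 with array quality weights. With 1 array left out they were 15 to 93, while all calls ran from 34 to 474. In OE2 against Col-0 the 7 calls, of 225 over all, became 4 of 120 with centred arrays and 3 of 93 without the trend. They became 13 of 671 with weights and 4 to 10 with 1 array left out, where all calls ran from 66 to 303. In OE1 against OE2 the 0 calls, of 6 over all, became 11 of 532 with weights. With 1 array left out they were 0 to 1, of 4 to 19 over all. OE1 against Col-0 gave 0 under all alternatives run, of 0 to 22 calls over all. The causes were not tested. An alternative added after seeing the data, removing each probe set's slope on the array median, gave 113 higher and 22 lower members, of which 70 and 17 were among the main ones. Over 47 named members and 17 settings each, 18 differences moved by at least the gene's SD over its 3 fls1-3 arrays. A gene with scattered mutant arrays could thus change and not count, as AT1G15010 did from 3.22 to 2.23 with weights. The direction of the 47 differences under a left-out array, the block, weights or the pseudocount was fixed by the choice of members and shows no stability. Pooled over the 3 held-out numbers, 49.3% of higher choices lay beyond, against 22.5% of all transcripts, and 15.7% of lower ones, against 30.2% of all. With centred arrays the higher share was 35.1%, against 29.2% of all, and the lower 21.5%, against 25.3%. The number of arrays limits the precision.

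With the replicate number as a block, 49 members were called in fls1-3 against the mean of the other groups and 7 in OE2 against Col-0, and no call of a member appeared in OE1 against OE2. Over all probe sets the calls were 106, 166 and 13. The main fit treated the samples as unpaired.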
